A study of Mus musculus with 12 samples.

Results

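The mouse Serpina3 genes are a row of related protease inhibitor genes on chromosome 12, and 6 of them, Serpina3f, Serpina3g, Serpina3h, Serpina3i, Serpina3m and Serpina3n, were examined by symbol among the 43629 gene rows of the counts table. They were compared between 6 IFNG and 6 Control libraries of mouse cortical neuronal cultures. By the labels, cultures were transduced with a lentivirus carrying an Ifng overexpression construct at 7 days in vitro and harvested after 10 more days. The same protocol text stands on all 12 samples, so the construct given to the Control cultures, if any, is not stated. The cells that made the interferon-gamma are not stated either, nor is the strain or the age of the animals. Poly(A) RNA was sequenced, and libraries held 14408343 to 20299507 counts in Control and 13875435 to 34239380 in IFNG.

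Serpins are inhibitors that offer a protease a flexible loop as bait. When the protease cuts the loop, the serpin changes shape and traps the enzyme. In humans the family has a single counterpart, SERPINA3 or alpha-1-antichymotrypsin, a protein of the acute-phase response, whereas in rodents the gene has been duplicated many times and the copies differ most in the bait loop. Serpina3n encodes a secreted inhibitor of leukocyte elastase, cathepsin G and granzyme B and is widely used as a marker of reactive astrocytes. Serpina3g, also called Spi2A, encodes an inhibitor that acts inside cells, on cathepsins among other proteases. Serpina3h is annotated as a transcribed pseudogene.

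RefSeq gives a promoter, 250 bases before to 50 bases after the gene start, for 4 of the 6 members (GRCm38.p6). These sequences are shown because the members differ in a short element within them. They were searched on both strands for the gamma-activated site TTCNNNGAA, an element of interferon-gamma response genes, and for the core of the interferon-stimulated response element. A gamma-activated site was found in the promoters of Serpina3f, Serpina3g and Serpina3i and not in that of Serpina3n. It was found in 8.3% of 32851 mouse promoters of the same length. It lay 121, 33 and 102 bases before the RefSeq start of Serpina3f, Serpina3g and Serpina3i. From another RefSeq start of Serpina3f it lay 210 bases before. The RefSeq window of Serpina3g ends at 104236196, before the GENCODE start of that gene at 104236245, so these distances depend on the annotation. The core of the response element, present in 3.44% of all promoters, was not found in any of the 4. The 30 bases around the match in Serpina3i, and the stretches that resemble them most in the other promoters, are given 5′ to 3′ on the gene's strand with the matching letters in capitals. Serpina3c and Serpina3b, neighbours with few counts, are included for comparison.
Serpina3i, chr12:104263010-104263039, plus strand: taagtgcttgTTCCCAGAAatcacccagtc
Serpina3g, chr12:104236104-104236133, plus strand: taagttatagTTCCCAGAAatcacccggtc
Serpina3f, chr12:104214413-104214442, plus strand: tcagttctatTTCCTAGAAatcacccattt
Serpina3n, chr12:104406575-104406604, plus strand: caaatccatgttaccagaaatcatccagtc
Serpina3c, chr12:104153973-104154002, minus strand: taaatccatattaccagaaatcatccagtc
Serpina3b, chr12:104127863-104127892, plus strand: taagtccttgtcaccataaatcatcctatc
Of the 30 bases, 26 were identical to Serpina3i in Serpina3g, 24 in Serpina3n and in Serpina3c, and 23 in Serpina3f and in Serpina3b. None of the 5 Serpina3 promoters without capitals or not shown held the site anywhere in the 300-base window, Serpina3n among them. A match is a description of letters. Binding was not measured, and no match says nothing of sites outside these windows.

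The 250 bases before the start of Serpina3f (chr12:104214294-104214543) and of Serpina3n (chr12:104406458-104406707), the most abundant members, are given in full, both on the plus strand, with the gamma-activated site of Serpina3f in capitals.
Serpina3f: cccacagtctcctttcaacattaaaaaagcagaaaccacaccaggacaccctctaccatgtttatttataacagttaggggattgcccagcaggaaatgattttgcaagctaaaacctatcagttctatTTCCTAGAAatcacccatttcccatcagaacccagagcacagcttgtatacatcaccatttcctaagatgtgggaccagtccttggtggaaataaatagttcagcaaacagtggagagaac
Serpina3n: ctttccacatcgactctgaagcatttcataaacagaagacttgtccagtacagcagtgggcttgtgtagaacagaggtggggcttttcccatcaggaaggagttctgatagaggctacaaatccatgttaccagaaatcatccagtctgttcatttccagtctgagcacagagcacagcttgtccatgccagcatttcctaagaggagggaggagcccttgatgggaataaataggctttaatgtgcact
After global alignment of the full 300-base windows, the promoters of Serpina3f, Serpina3g and Serpina3i were 81.7 to 83.7% identical to each other over the aligned bases. They were 71.2 to 76.5% identical to that of Serpina3n, which was 93.5% identical to that of Serpina3c.

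In IFNG cultures 5 of the 6 members had higher levels than in Control, and the most abundant member was a different one. Serpina3h is among the 5 though it did not pass the filter on low counts. Serpina3g, Serpina3h and Serpina3i stayed at low levels, and the part of Serpina3f reads in their counts was not tested. Control cultures held Serpina3n and almost nothing else of the 6 genes. In IFNG cultures Serpina3f was the most abundant member, Serpina3n rose about 5-fold, and Serpina3g, Serpina3h and Serpina3i, at or near 0 counts in Control, were read in all 6 libraries. Serpina3m was not read in any library. Of the 4 members with enough counts to be tested, all 4 were higher in IFNG, against 14.3% of the 15241 genes tested. Serpina3f, Serpina3g and Serpina3i passed the filter on low counts through their IFNG libraries alone, so that count could hardly have come out otherwise and is given as a description. In all 4 the lowest IFNG library lay above the highest Control library, as it did for 8.75% of the genes tested.

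**Figure D1:**
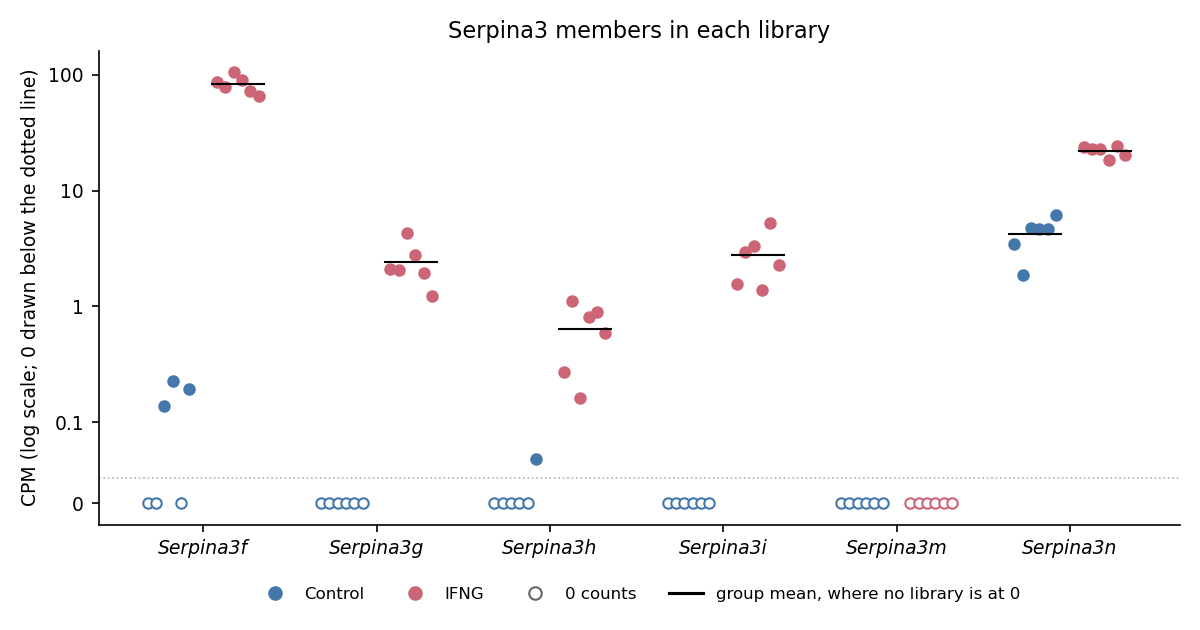
Level in CPM (log axis) of the 6 Serpina3 members in each library; open circles are libraries with 0 counts, and black lines are group means (n = 6) where no library is at 0. IFNG libraries lie above all Control libraries for every member but Serpina3m, which has 0 counts in all 12.

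Serpina3n (ENSMUSG00000021091, GRCm38 chr12:104406729-104414329, plus strand) was the member that held nearly all member counts in Control libraries. Its level in Control libraries, in CPM, that is counts relative to the scaled library total, ran from 1.86 to 6.15 CPM with a median of 4.66 CPM, on 34 to 127 counts per library. In IFNG libraries it ran from 18.2 to 24.2 CPM with a median of 22.8 CPM, on 248 to 769 counts. The groups did not overlap, and the IFNG libraries lay closer together in proportion than the Control libraries, of which Control 2 was the lowest and Control 6 the highest. The mean went from 4.25 ± 1.45 to 22.0 ± 2.36 CPM (SD, n = 6 each). The log2 fold change was 2.37 ± 0.20 (SE; Benjamini-Hochberg adjusted p = 1.73e-08 by edgeR's quasi-likelihood test), a 5.18-fold rise. Exact permutation of the group labels (924 arrangements, two-sided) yielded p = 0.00216, its lower limit.

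Serpina3f (ENSMUSG00000066363, chr12:104214544-104221129, plus strand), a close copy whose protein is little studied, was the member with the highest level in IFNG libraries. Control libraries ran from 0 to 0.226 CPM with a median of 0.0683 CPM, and 3 of them had 0 counts. The Control libraries together held 10 counts. IFNG libraries ran from 65.5 to 105 CPM with a median of 82.4 CPM, on 1236 to 2611 counts. No library came near the other group, and IFNG 3 was the highest and IFNG 6 the lowest. The log2 fold change was 9.71 ± 0.29 (SE; adjusted p = 1.44e-15 by edgeR's quasi-likelihood test). Over the pooled counts the depth-scaled ratio was 878, with an exact 95% interval of 477 to 1831 that covers counting error only. The exact permutation p was again at its lower limit, 0.00216. Serpina3f passed the filter through its IFNG libraries alone, so its adjusted p is given as a description.

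Serpina3g (ENSMUSG00000041481, chr12:104236245-104241939, plus strand) had 0 counts in all 6 Control libraries, which allows a level of up to 0.0278 CPM over the group. IFNG libraries ran from 1.23 to 4.33 CPM with a median of 2.08 CPM, on 25 to 80 counts and 288 in all. With 3 counts over the Control group as the floor, Serpina3g was at least 83.6-fold higher in IFNG. This takes all 288 counts as its own. The adjusted p was 1.35e-06 by edgeR's quasi-likelihood test, a description, since the gene passed the filter through its IFNG libraries alone. IFNG 3 was the highest library and IFNG 6 the lowest, as for Serpina3f.

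Serpina3i (ENSMUSG00000079014, chr12:104263122-104269372, plus strand), annotated as protein-coding, was likewise at 0 in all Control libraries. IFNG libraries ran from 1.40 to 5.24 CPM with a median of 2.59 CPM, on 19 to 122 counts and 369 in all. It was at least 107-fold higher by the same floor, with all 369 counts taken as its own. The adjusted p was 1.25e-06 by edgeR's quasi-likelihood test, again a description, since Serpina3i passed the filter through its IFNG libraries alone. The highest library was IFNG 5 and the lowest IFNG 4, an order unlike that of Serpina3g.

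Serpina3h (ENSMUSG00000041449, chr12:104247905-104253669, plus strand), the transcribed pseudogene between Serpina3g and Serpina3i, did not pass the filter on low counts. It had 1 count in Control, in Control 6, and 3 to 37 counts per IFNG library, 88 in all. The IFNG level was 0.640 ± 0.369 CPM (SD, n = 6), and the pooled counts, scaled for depth, stood in a ratio of 76.6 (exact 95% interval 13.4 to 3059). The groups did not overlap (p = 0.00216 in the exact permutation test), as IFNG lay higher without overlap for 8.75% of the genes tested. The nearest libraries were Control 6 at 1 count and IFNG 3 at 3 counts, close to the floor. Without a filter its adjusted p was 0.000321 in edgeR. The part of reads from other copies in these counts was not tested.

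Serpina3m (ENSMUSG00000079012, chr12:104338486-104394257, plus strand) had 0 counts in all 12 libraries, which allows up to 0.0278 CPM in Control and 0.0242 CPM in IFNG. Its GENCODE model spans Serpina3k and the pseudogene Serpina3l-ps, so reads there could be ambiguous. Both of those rows were also at 0.

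Along the chromosome, most Serpina3 counts of the IFNG cultures lay at Serpina3f (10084 counts) and Serpina3n (2761). Serpina3g, Serpina3h and Serpina3i, next to Serpina3f, held 288, 88 and 369. The counts table holds 14 Serpina3 rows spanning 301.6 kb in GRCm38. Serpina3f, Serpina3g, Serpina3h and Serpina3i are consecutive and together span 54.8 kb. Next come Serpina3j, Serpina3k, Serpina3l-ps and Serpina3m, which had no count in any library. Serpina3n starts 137 kb beyond the end of Serpina3i, at the end of the row. On the other side of Serpina3f, Serpina3a, Serpina3b, Serpina3c and the pseudogenes Serpina3d-ps and Serpina3e-ps held 17 counts in Control and 58 in IFNG altogether, and none had more than 14 counts in a library. None of the 8 Serpina3 rows outside the 6 members had enough counts to be tested.

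**Figure D2:**
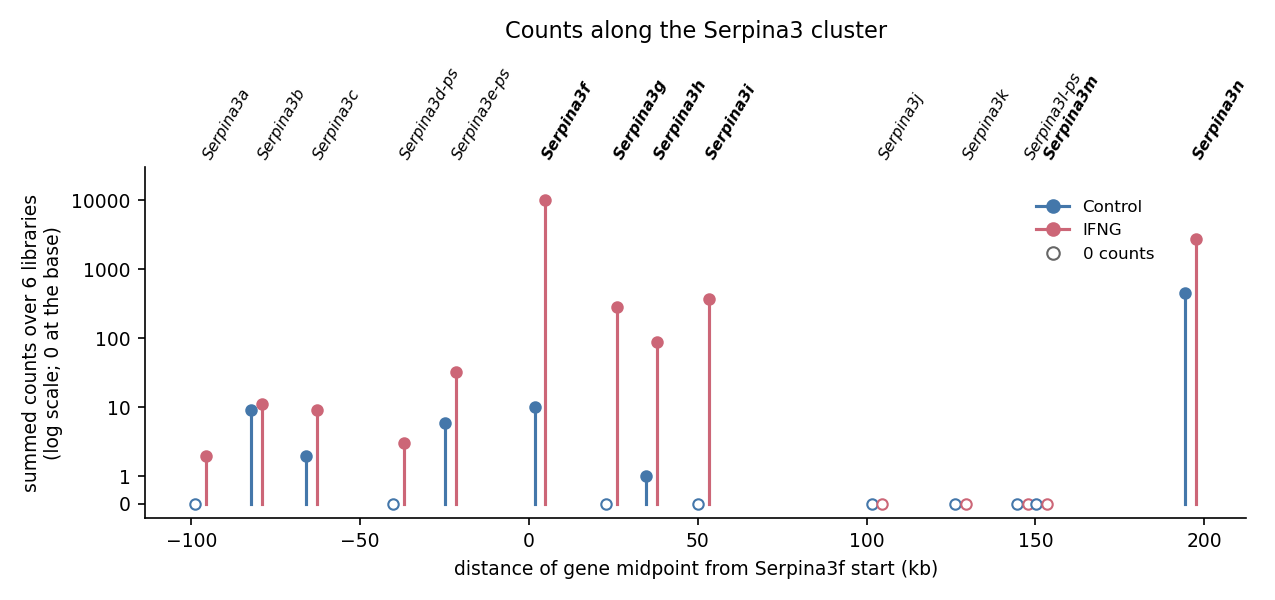
Counts summed over the 6 libraries of each group (log axis, 0 at the base, open circles for 0) for the 14 Serpina3 rows, placed by the distance of the gene's midpoint from the start of Serpina3f in kb; members are in bold. The highest IFNG counts lie at Serpina3f and Serpina3n, with lower counts at Serpina3g, Serpina3h and Serpina3i. The 4 rows between Serpina3i and Serpina3n are at 0.

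Because the copies resemble each other, part of the reads could belong to another copy, and neither the read length nor the counting rule is given in the sources used here. Of the 50-base words in Serpina3f transcripts (GENCODE M21), 89.4% occurred in no other gene, and at 100 bases 96.6% did. For Serpina3n these shares were 93.1% and 99.8%, and for Serpina3g 84.5% and 96.5%. Serpina3h had the fewest words of its own among the members that were read, 78.1% at 50 bases and 96.4% at 100. The minor members bear on this most. Serpina3g held 2.86% as many IFNG counts as Serpina3f, and 6.03% of the 50-base words of Serpina3f, or 0.88% of its 100-base words, also occur in Serpina3g. Serpina3i held 3.66% as many, with 3.93% and 1.46% of words shared, and Serpina3h 0.873% as many, with 3.76% and 1.19%. Serpina3e-ps shares 4.11% and 1.41% of the words of Serpina3f and held 0.327% as many counts. Serpina3n shares 0.92% of the 50-base words of Serpina3f and held 27.4% as many counts. How far reads of Serpina3f entered the counts of Serpina3g, Serpina3h and Serpina3i was not tested.

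The summed level of the 6 members is unaffected by reads passed from one of them to another, but not by reads discarded, counted more than once or given to other copies. It ran from 1.86 to 6.40 CPM in Control libraries, with a median of 4.77 CPM, and from 89.7 to 136 CPM in IFNG libraries, with a median of 110.5 CPM. The means were 4.35 ± 1.54 and 110.9 ± 15.1 CPM (SD, n = 6 each). The sum in the lowest IFNG library was thus far above that in the highest Control library.

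Levels of different genes were compared per kb of exon. On that scale Serpina3n made up 98.2 ± 2.01% of the member total in Control libraries and 21.7 ± 3.17% in IFNG libraries (SD, n = 6 each). Serpina3f made up 1.58 ± 1.83% in Control and 72.6 ± 3.94% in IFNG. Serpina3i, Serpina3g and Serpina3h made up 2.55 ± 1.35%, 2.23 ± 0.683% and 0.935 ± 0.550% of the IFNG total. The order in IFNG libraries was Serpina3f at 36.3 ± 6.20 CPM per kb, Serpina3n at 10.7 ± 1.15, Serpina3i at 1.25 ± 0.637, Serpina3g at 1.14 ± 0.507 and Serpina3h at 0.446 ± 0.257 CPM per kb (SD, n = 6 each). Serpina3f and Serpina3n did not overlap, at 28.6 to 45.9 and 8.83 to 11.7 CPM per kb. Serpina3i and Serpina3g overlapped almost wholly, at 0.628 to 2.36 and 0.582 to 2.06 CPM per kb. In Control libraries Serpina3n stood at 2.06 ± 0.704 CPM per kb and Serpina3f reached at most 0.0987 CPM per kb.

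**Figure D3:**
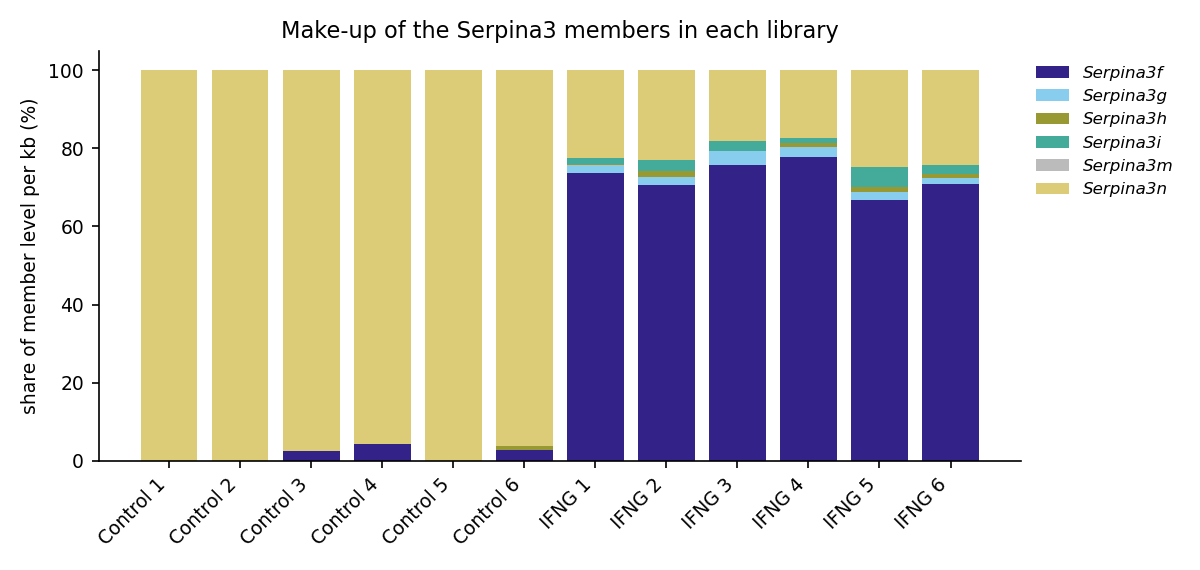
Share of each member in the summed level per kb of exon of the 6 members (%, linear axis from 0), with a bar for each library. Serpina3n fills nearly all of the 6 Control bars, and Serpina3f fills most of the 6 IFNG bars.

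Whether the members rose by different amounts was tested on the log2 ratio of their counts within each library, after adding 2 counts to each, in which depth cancels. There were 6 pairs among the 4 tested members. The ratio of Serpina3f to Serpina3n went from -4.51 ± 0.611 in Control to 1.90 ± 0.293 in IFNG (SD, n = 6 each). That is a difference of 6.41 on the log2 scale, with no overlap between groups (exact permutation p = 0.00216; adjusted over the 6 pairs 0.00259). The ratios of Serpina3g and Serpina3i to Serpina3n also differed between groups, by 1.97 and 2.14 (each exact permutation p = 0.00216, adjusted 0.00259). Since Serpina3g and Serpina3i were at 0 in Control, the sizes of these differences depend on the added count, and with 0.5 added they were 3.89 and 4.06. Serpina3f, Serpina3g and Serpina3i passed the filter on low counts through their IFNG libraries alone. The p-values of their ratios to Serpina3n could therefore hardly have come out otherwise and are given as descriptions. The part of Serpina3f reads in the counts of Serpina3g and Serpina3i was not tested. The ratios of Serpina3f to Serpina3g and to Serpina3i differed by 4.44 and 4.27 between groups (each exact permutation p = 0.00216, adjusted 0.00259). Their Control values are set by the added counts, and the rises of Serpina3g and Serpina3i have only lower bounds, so these data do not show whether either rose less than Serpina3f. The ratio of Serpina3g to Serpina3i differed by -0.17 between groups (exact permutation p = 0.606). It is 0 by construction in Control, and in IFNG libraries it was -0.17 ± 0.88 (SD, n = 6).

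Within the 6 IFNG libraries Serpina3f and Serpina3g ordered the libraries alike, in relations chosen after the counts were seen. Pearson's r of their CPM values was 0.949 (exact permutation p = 0.00278; adjusted p = 0.0389 over 14 relations) and Spearman's rho was 1.0 (exact permutation p = 0.00278). Without IFNG 3 and IFNG 6, the libraries farthest from the median of Serpina3f, r was 0.814 over the remaining 4. The other 5 pairs of members had r between -0.215 and 0.579 (exact permutation p from 0.167 to 0.914, n = 6). Serpina3f against Serpina3i gave r = -0.215 (rho = -0.2) and against Serpina3n r = -0.0158 (rho = -0.257). Without IFNG 3 and IFNG 6 these were -0.949 and -0.693, so they rest on which libraries enter. The shared words given above lie beside this relation, and their part in it was not tested.

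**Figure D4:**
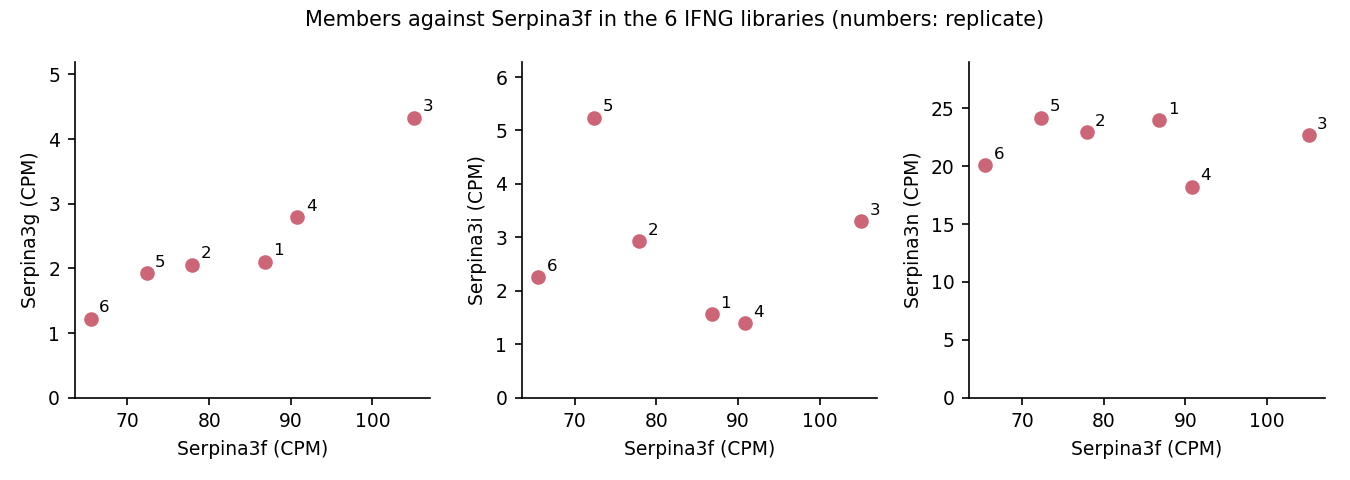
CPM of Serpina3g, Serpina3i and Serpina3n (vertical axes, from 0) against CPM of Serpina3f (horizontal axes, not from 0) in the 6 IFNG libraries, with points numbered by replicate. Serpina3g rises with Serpina3f (r = 0.949), whereas Serpina3i and Serpina3n show no such rise (r = -0.215 and -0.0158).

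The level of Ifng RNA varied among the IFNG libraries, from 4.98 CPM in IFNG 3 to 17.9 CPM in IFNG 5. These are counts of the Ifng row and not levels of the secreted protein. The library with the least Ifng had the most Serpina3f and Serpina3g. Across the 6 libraries r of Ifng was -0.683 with Serpina3f and -0.587 with Serpina3g (exact permutation p = 0.136 and 0.189), and 0.520 with Serpina3i and 0.0437 with Serpina3n (exact permutation p = 0.297 and 0.989). Spearman's rho was -0.543, -0.543, 0.257 and 0.314 in that order, and every adjusted p was 0.441 or more. Without IFNG 3 and IFNG 5 the 4 values of r were -0.127, 0.210, 0.462 and -0.551, so those for Serpina3f and Serpina3g rest on these libraries. Control libraries held at most 0.170 CPM of Ifng, and 7 counts in all.

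Astrocyte markers were higher in the same libraries, which bears on Serpina3n as a gene that astrocytes make. Of the 14 listed markers 12 were tested and all 12 rose, where 14.3% of all genes tested were higher. The groups overlapped for Aqp4, Gja1, Atp1b2, Ntsr2, Slc4a4 and Acsbg1, and S100b, not tested, had 55 counts in each group. Their median was 0.66 on the log2 scale, against -0.02 over all genes tested. Their summed level ran from 2630 to 2900 CPM in Control and from 4280 to 6890 CPM in IFNG libraries. No marker was at 0 in Control, and Gjb6 was at 0 in IFNG. The 13 neuronal markers were all present and summed to 6120 to 6580 CPM in Control and 4680 to 5750 CPM in IFNG. All 13 were tested and 4 of them fell, where 9.79% of all genes tested were lower. More cells of a type and more RNA per cell cannot be told apart in bulk libraries. Relative to the summed astrocyte markers, in a comparison chosen after the values were seen, Serpina3n was higher in IFNG by 1.41 on the log2 scale. The ratio went from -9.41 ± 0.601 in Control to -8.00 ± 0.352 in IFNG (SD, n = 6 each, exact permutation p = 0.00216). Slc1a3 and Slc1a2 made up much of the sum, with Control means of 774 and 699 CPM beside 2721 CPM for the sum. The size of the difference depends on the markers taken, whose own changes ran from 0.29 (Atp1b2) to 1.73 (Aldoc) among those tested. Whether the sum follows the number of astrocytes was not tested, and the cells that made Serpina3n were not identified. Across the 6 IFNG libraries r of the summed markers was -0.471 with Serpina3n (rho = -0.143; r = -0.373 without IFNG 1 and IFNG 3; exact permutation p = 0.353) and -0.857 with Serpina3f (exact permutation p = 0.0306; adjusted p = 0.214 over 14 relations; rho = -0.829; r = -0.619 without IFNG 1 and IFNG 3).

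Markers of other cell types were lowest for lymphocytes and hepatocytes and highest for the oligodendrocyte lineage. Of 14 markers of microglia and macrophages 4 had enough counts to be tested and P2ry12 rose; the list summed to 14.1 to 23.7 CPM in Control and 18.1 to 30.3 CPM in IFNG, with Tmem119 at 0 in Control. None of 12 T and NK cell markers or 8 hepatocyte markers had enough counts. The lymphocyte list summed to 0.423 to 3.28 CPM in Control and 0.298 to 3.31 CPM in IFNG, with Cd3d, Nkg7, Prf1, Gzmb and Gzma at 0 in both. The hepatocyte list reached at most 1.06 CPM in Control and 1.16 CPM in IFNG, with Fgb at 0 in both. Of 3 endothelial, 5 fibroblast and mural, and 9 oligodendrocyte genes tested, 1 each rose (Ly6c1, Pdgfrb and Cnp), and Olig2 and Pdgfra fell. Beside these counts and that of the microglia list, 14.3% of all genes tested were higher and 9.79% lower. The endothelial list summed to 8.04 to 9.45 CPM in Control and 9.10 to 15.7 CPM in IFNG, with Cldn5 at 0 in both. The fibroblast and mural list summed to 30.6 to 49.4 and 48.2 to 56.8 CPM, with Kcnj8 at 0 in Control, and the oligodendrocyte list to 299 to 402 and 317 to 361 CPM. The part of these cells in the Serpina3 levels was not tested.

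Other serpins gave the family context. None of the 15 other clade A serpins, among them the Serpina1 genes of alpha-1-antitrypsin, had enough counts to be tested. Of 35 serpins of other clades 12 were tested, and the median over these was 0.49 (log2). Of the 12, 6 rose and 2 fell, against 14.3% and 9.79% of all genes tested. Serping1, the inhibitor of the first complement component, went from 0.306 ± 0.179 to 380 ± 114 CPM (SD, n = 6 each), a log2 fold change of 10.21 ± 0.29 (SE), beside 9.71 ± 0.29 for Serpina3f. Serpinb9, an intracellular inhibitor of granzyme B, went from 1.37 ± 0.572 to 25.8 ± 5.25 CPM (log2 fold change 4.22 ± 0.23). Serpinh1, the collagen chaperone HSP47, rose by 0.83 ± 0.15, with overlapping groups, and the neuronal serpin Serpini1 by 0.56 ± 0.12. Serpinf1, the most abundant that did not pass, stood at -1.03 ± 0.45 (adjusted p = 0.108 by edgeR's quasi-likelihood test). The genes that fell, named for their small number, were Serpine2, protease nexin 1, at -0.32 ± 0.11, and Serpinb2 at -1.57 ± 0.50. Leaving out any of several libraries took 1 or both of these calls away, as without IFNG 2, IFNG 3, IFNG 6 or Control 5, when neither remained.

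**Figure D5:**
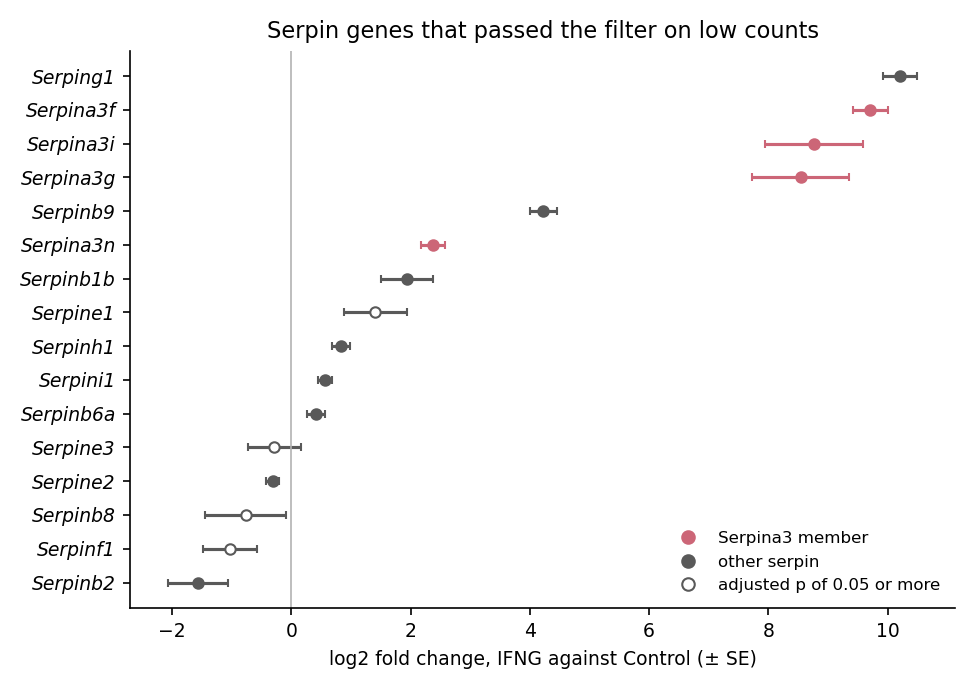
Log2 fold changes (IFNG against Control) with SE (bars) for the 16 serpin genes that passed the filter on low counts; filled points have an adjusted p under 0.05. Serpina3f lies beside Serping1 at the top and Serpina3n lies between Serpinb9 and Serpinb1b; the fitted values of Serpina3g and Serpina3i, at 0 in Control, depend on the prior count of the fit.

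Proteases were counted as 2 lists, serine proteases and cathepsins with gelatinases, which hold known targets of serpins and other members of these families. Of 24 serine protease genes 9 were tested and 2 rose, where 14.3% of all genes tested were higher, and the median of the 9 was 0.51 (log2). Plat, tissue plasminogen activator, rose by 2.12 ± 0.16 (SE), from 53.3 ± 5.42 to 231 ± 67.3 CPM (SD, n = 6 each), and Htra1 by 0.50 ± 0.13. Prss12 was the most abundant that did not pass, at -0.20 ± 0.13 (adjusted p = 0.287 by edgeR's quasi-likelihood test). Of the classical targets of Serpina3n, granzyme B (Gzmb) had 0 counts in all 12 libraries, cathepsin G (Ctsg) had 3 in Control and 16 in IFNG, and leukocyte elastase (Elane) 13 and 19. Of 14 cathepsin and gelatinase genes 11 were tested and 6 rose, with a median of 0.74. Ctso rose by 2.02 ± 0.17, Ctsz by 1.75 ± 0.27, Ctsc by 1.34 ± 0.23 and Ctsb, a lysosomal protease that Serpina3g can inhibit, by 0.90 ± 0.13. Ctsa stood at 0.21 ± 0.14 (adjusted p = 0.287). Ctsa, Ctsb, Ctsz and Htra1 overlap expressed genes on the opposite strand, so part of their reads could belong to those.

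Signalling genes and genes of reactive astrocytes were counted in the same way, against the same 14.3% of all genes higher. Of 26 receptors, kinases and transcription factors of interferon and cytokine signalling, all were tested and 18 rose; the median over the list was 0.74 (log2). Irf1, a transcription factor of the interferon response, went from 3.40 ± 0.572 to 213 ± 19.9 CPM, Irf8 from 0.838 ± 0.266 to 133 ± 14.9 CPM and Stat2 from 25.7 ± 4.62 to 523 ± 105 CPM (SD, n = 6 each). Jak1, a kinase of the interferon receptors, stood at 0.19 ± 0.093 (adjusted p = 0.161 by edgeR's quasi-likelihood test). Of 35 genes of reactive astrocytes 27 were tested, 15 rose and 1, the prostaglandin synthase gene Ptgs2, fell (-4.20 ± 0.45), with a median of 1.24. The smallest p-values belonged to Iigp1, Serping1, H2-D1 and Psmb8, which are also interferon response genes, at log2 fold changes of 5.99 to 10.21. Fkbp5 stood at -0.29 ± 0.12 (adjusted p = 0.0921).

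Over the 12 libraries each tested member had its own nearest profiles among 13576 other genes. Likeness was the root mean square difference of log2 CPM (prior count 2) after each gene's mean was removed. Nearest to Serpina3n were Plin2, a lipid droplet protein gene, Psme2 and Irf9, at 0.314, 0.323 and 0.326. Nearest to Serpina3f were Irgm1, Irgm2 and Tnfsf10, at 0.395, 0.524 and 0.575. Serpina3g lay nearest to Dennd2d, Serpinb9 and Olfr56 (0.456, 0.469 and 0.518), and Serpina3i to Tapbp, Ifi27 and Uaca (0.459, 0.468 and 0.477). At the low counts of Serpina3g and Serpina3i the prior count shortens the profile, so their neighbours include genes with smaller fitted changes. The Olfr56 model spans Ifi47, Tgtp1 and Tgtp2, and the Irgm2 model overlaps Igtp, so reads of both are uncertain. Dennd2d, Irf9 and Tapbp overlap Cept1, Rnf31 and Zbtb22. Between members the difference was 0.577 for Serpina3g and Serpina3i, and 1.17 to 1.24 between these and Serpina3n. It was 2.24 to 2.27 between Serpina3f and Serpina3g or Serpina3i, and 3.27 for Serpina3f and Serpina3n. Serpina3f, Serpina3g and Serpina3i were at or near 0 in Control, so the prior count enters these differences too. They depend in part on how abundant each member was in IFNG libraries.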

How the data were processed

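The authors deposited raw counts per Ensembl gene, whole numbers that were not normalized, for 12 poly(A) libraries. Per the submitters' processing notes, STAR 2.4 and DESeq2 were used and the builds GRCm39 and mm10 are named, with no role given. Each of read counter, strand setting, annotation and read length is not given in the sources used here. Symbols, coordinates and exon lengths came from GENCODE M21 (GRCm38), which matched 42548 of 43629 identifiers.

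IFNG and Control were compared by two-sided quasi-likelihood F-tests of edgeR 4.0.16 under R 4.3.3, after TMM scaling and filterByExpr, with Benjamini-Hochberg adjustment at 0.05 over 15241 genes, with no block. SE is the absolute log2 fold change over the square root of F. CPM uses TMM-scaled totals. Median log2 fold changes are over the tested genes of a list. Alternatives were other scalings, filters, a replicate block, each library left out, DESeq2 1.42.0 and limma-voom (limma 3.58.1).

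The members and lists were chosen with earlier results of these data known. Named genes are all members, from each list up to 4 genes of smallest p plus the most abundant that did not pass, and the 3 nearest profiles of each tested member. A gene that this rule names is not reported here. Libraries of a group differed by at least 7.44 in chi-square per gene, so all 12 counted as samples. Nothing says they came from separate cultures, so the spread behind the p-values is that among these 12 samples and could be technical. Of all genes tested 2184 were higher and 1492 lower, and 2954 and 750 when libraries were scaled by their totals less the risen genes, which moves the median log2 fold change from -0.02 to 0.10.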

Additional observations from a re-analysis of the deposited data

Results flagged for a closer look

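In groups of 6 libraries, a value was singled out when the gap to its nearest neighbour exceeded 0.625 of the group's range. Of 54 groups checked, over the members, their sum and the named genes, 3 were singled out, and chance singles out about 1 group in 20. Serpina3h had 0.0485 CPM in Control 6, which is its single Control count, and 0 in the other 5. Plat stood at 42.7 CPM in Control 2 against 53.6 to 57.6 CPM in the other Control libraries. Ctsc stood at 34.2 CPM in IFNG 1 against 11.9 to 19.8 CPM in the other IFNG libraries. Of Serpina3f, Serpina3g, Serpina3i, Serpina3n and the member sum, no library was singled out.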

How the results depend on the processing

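Serpina3f, Serpina3g, Serpina3i and Serpina3n passed as higher under all 21 alternatives, with log2 fold changes of 9.45 to 10.20, 6.29 to 8.67, 6.62 to 8.93 and 2.22 to 2.53. The largest adjusted p among them was 0.000196, for Serpina3g with the replicate block, and their lowest fitted values for Serpina3g and Serpina3i came from limma-voom. With no filter 5 members passed in place of 4, the fifth being Serpina3h, where 2319 of 27932 genes were higher. Among all genes, 750 were lower in place of 1492 when libraries were scaled by totals less the risen genes. Among the related lists together, 45 genes were higher and 3 lower, and leaving out libraries gave 44 to 46 higher and 2 to 5 lower, 5 being without IFNG 4. Serpinf1 passed with the replicate block (-1.05, adjusted p = 0.0345 in edgeR) and without IFNG 4, and Jak1 passed under the scaling by totals less the risen genes (0.30); the cause was not tested. The ratio tests kept 5 of 6 pairs past the threshold in each alternative. Among them are the ratios of Serpina3f to Serpina3g and to Serpina3i, whose Control values are set by the added counts. These ratios therefore do not show which of the genes rose more. Omitting Control 4 and IFNG 5 together was chosen after seeing the data and left the 4 members higher.

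Same-numbered libraries of both groups correlated at -0.001 to 0.124 in their deviations from the group means, and 1 of 6 numbers correlated best with its own partner, so the numbers were not taken as pairs. With the replicate number as a block 2114 genes were higher and 1563 lower, Serpina3f, Serpina3g, Serpina3i and Serpina3n had log2 fold changes of 9.70, 8.48, 8.72 and 2.42, and no member lost its call. At this depth a gene with 0 counts in a group can be bounded but not called absent.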
